A study of Mus musculus with 6 samples.

Results

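The genes described here are 10 markers of macrophages, Ptprc, Adgre1, Marco, Mrc1, Lilr4b, Lyz2, C1qb, Ctss, Mpeg1 and Ccl6, read in mouse lung endothelial cells. They were taken by symbol from a table of 18956 genes, and all 10 had a row. The study's 6 RNA-sequencing libraries were 3 from WT, Cre-negative mice (WT 1 to 3) and 3 from Cre-positive CSE-KO mice (CSE-KO 1 to 3), as labelled, where CSE is cystathionine gamma-lyase, the enzyme encoded by Cth. The title places them in work on cystine import, histone acetylation and vascular growth. The Cre driver, the deleted exons, the strain, age and number of mice, the way endothelial cells were isolated and the passage of the cells are not given by the sources at hand. Values are taken to be normalized counts, a unit inferred from the numbers themselves, that is read counts scaled to a common library size and rounded, with totals between 5698922 and 6052275 per library, and are given below for libraries 1, 2 and 3 in that order, WT against CSE-KO. Cth itself was at 29, 27 and 26 against 49, 43 and 63, so the gene named in the label was the higher under that label. Since the deleted exons are not given, a value for the whole gene does not check the deletion, and WT and CSE-KO are used below as the names of labelled libraries.

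Macrophages are phagocytes of blood or embryonic origin that live in every tissue and, in the lung, in the air space and around the vessels. They carry CD45 like other blood-derived cells, bind debris and microbes through scavenger receptors and lectins, and digest them with lysosomal proteases and lysozyme. Their identity depends on the transcription factor PU.1, encoded by Spi1, and on the receptor for colony stimulating factor 1. Some of the genes used to recognise them are also made by other cells, among them the mannose receptor gene Mrc1, which lymphatic and liver sinusoidal endothelium express.

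In all, 9 of the 10 members were higher in every library labelled CSE-KO than in any labelled WT, and Mrc1 was at like levels in both groups. The members were chosen by their normalized counts in this same contrast, so the values are a description, with no test. Of the 13750 genes tested, those with 10 or more in 3 or more libraries, 40.0% were higher in every CSE-KO than in any WT library and 40.4% were lower in every one, and nothing is read from the members' count against those shares. All 10 members passed that minimum, 8 of them only through the CSE-KO libraries. The 9 members without Mrc1 summed to 34, 45 and 50 normalized counts against 1216, 1507 and 1384, a very small part of each library in both groups. In bulk RNA, a different number of cells of a type and a different amount of RNA per cell cannot be told apart.

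**Figure D1:**
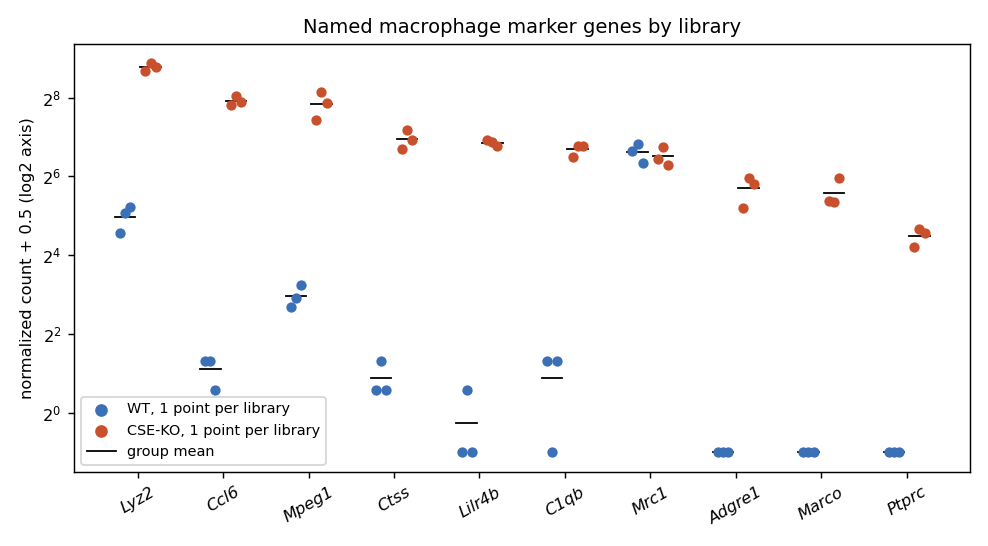
Normalized counts of the 10 members in each library (points), plus 0.5, on a log2 axis, with the group mean as a bar, ordered by the CSE-KO mean. In 9 genes the CSE-KO points lie above all WT points, and Adgre1, Marco and Ptprc are listed at 0 in all 3 WT libraries. The points of Mrc1 overlap.

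The pan-leukocyte gene and the best known macrophage surface receptor were listed at 0 in every WT library. Ptprc encodes CD45, a tyrosine phosphatase on the surface of nearly all blood-derived cells, and is the member that macrophages share with lymphocytes and granulocytes (ENSMUSG00000026395, mm10 chromosome 1, 138062861 to 138175708, minus strand). It was at 0, 0 and 0 against 18, 25 and 23 (CSE-KO mean 22 ± 3.61, SD, n = 3, as for all errors below). Its annotated exons together span 18313 bases, and per kilobase of them its CSE-KO mean was 1.2, the lowest of the members. Adgre1 encodes F4/80, an adhesion receptor used to mark mouse tissue macrophages (ENSMUSG00000004730, chromosome 17, 57358691 to 57483527, plus strand). Its counts were 0, 0 and 0 against 36, 62 and 56 (51.3 ± 13.6 in CSE-KO, 15.9 per kilobase). The groups of both genes were thus apart, but neither has a fold, since one group was at 0.

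The pair of endocytic receptors differed from each other. Marco encodes a collagen-like scavenger receptor that binds bacteria and particles and marks macrophages of the air space and of the splenic marginal zone (ENSMUSG00000026390, chromosome 1, 120474538 to 120505024, minus strand). It was listed at 0 in each WT library and stood at 41, 40 and 62 under CSE-KO (47.7 ± 12.4, 24.8 per kilobase). Mrc1 encodes the mannose receptor CD206, which clears glycoproteins and hormones (ENSMUSG00000026712, chromosome 2, 14229392 to 14332057, plus strand). Its counts were 99, 112 and 80 against 87, 107 and 78. The means of Mrc1 were 97.0 ± 16.1 and 90.7 ± 14.8 (log2 difference −0.10, standard error 0.15), and the libraries of both groups overlapped. Its log2 difference was 0.01 without WT 2 and also 0.01 without CSE-KO 3, so no direction is given. Per kilobase, the WT mean of Mrc1 was 15.2, when 8 of the other 9 members were under 2 and Lyz2 was at 23.6.

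Per kilobase, genes of secreted proteins held the highest CSE-KO levels. Lyz2 encodes lysozyme M, which breaks down bacterial cell walls and is the gene whose promoter drives Cre in many myeloid knockout mice (ENSMUSG00000069516, chromosome 10, 117277331 to 117282321, minus strand). It was at 23, 33 and 37 against 408, 466 and 439. With 333 per kilobase it had the highest CSE-KO mean of the members on that scale, and its means of 31.0 ± 7.21 and 438 ± 29.0 differed 14.1-fold (log2 difference 3.82, standard error 0.16). Of the 9 members that were higher, Lyz2 alone reached 10 in any WT library, and it did so in all 3. Ccl6 encodes a chemokine of the CC family found in rodents (ENSMUSG00000018927, chromosome 11, 83587882 to 83593087, minus strand). Its counts were 2, 2 and 1 against 225, 263 and 235 (241 ± 19.7, 134 per kilobase). C1qb encodes the B chain of C1q, the recognition subunit of the classical complement pathway, which macrophages make in tissue (ENSMUSG00000036905, chromosome 4, 136880129 to 136886187, minus strand). It was at 2, 0 and 2 against 90, 109 and 108 (102 ± 10.7, 94.1 per kilobase).

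The remaining members act in phagosomes or on the cell surface. Ctss encodes cathepsin S, the cysteine protease that trims the invariant chain of class II molecules (ENSMUSG00000038642, chromosome 3, 95526786 to 95556403, plus strand). Its counts were 1, 2 and 1 against 104, 144 and 121 (123 ± 20.1, 90.6 per kilobase). Mpeg1 encodes perforin-2, a pore-forming protein that attacks engulfed bacteria (ENSMUSG00000046805, chromosome 19, 12460779 to 12465283, plus strand). It was at 6, 7 and 9 against 173, 282 and 231. Its means of 7.33 ± 1.53 and 229 ± 54.5 differed 31.2-fold (log2 difference 4.86, standard error 0.21). The CSE-KO libraries were farther apart for Mpeg1, in counts, than for any other member. Lilr4b, once called gp49A, encodes an immunoglobulin-like receptor of myeloid and mast cells (ENSMUSG00000112023, chromosome 10, 51480632 to 51486703, plus strand), and its counts were 0, 1 and 0 against 121, 116 and 109 (115 ± 6.03, 21.2 per kilobase).

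Lyz2 and Lilr4b each have a near-identical neighbour, so the coding starts of both pairs are shown, read from GENCODE transcripts (mouse release M21), with the bases that differ within a pair in capitals.
Lyz2: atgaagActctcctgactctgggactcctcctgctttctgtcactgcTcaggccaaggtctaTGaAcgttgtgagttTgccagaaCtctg
Lyz1: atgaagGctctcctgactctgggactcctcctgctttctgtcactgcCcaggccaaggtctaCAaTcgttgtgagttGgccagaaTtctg
Lilr4b: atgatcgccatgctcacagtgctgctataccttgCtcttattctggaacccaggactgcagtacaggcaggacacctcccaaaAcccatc
Lilrb4a: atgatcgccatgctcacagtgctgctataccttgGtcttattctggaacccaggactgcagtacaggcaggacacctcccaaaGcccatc
Over the whole coding sequence, Lyz2 and Lyz1 were identical at 422 of 444 aligned bases (95.0%), and Lilr4b and Lilrb4a at 871 of 907 (96.0%). Of all 75-base stretches of annotated Lyz2 transcripts, the length of the reads, 5.96% also occurred in another gene, most often Lyz1. Of those of Lilr4b, 15% occurred in another gene, most often Lilrb4a. The other 8 members shared no 75-base stretch with any transcript of another gene. Lyz1 was at 0, 0 and 0 against 1, 2 and 4, far below Lyz2. Lilrb4a, which encodes an inhibitory receptor, was at 2, 0 and 0 against 22, 22 and 34, and how reads shared with Lilr4b were counted is not stated. Gene models on the same strand also overlap the spans of Ptprc, Ctss, Lilr4b and Mrc1, introns included. Whether any reads of these genes were left unassigned for that reason is not known.

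The windows upstream of the members were read from RefSeq (GRCm38.p6) because 9 of the 10 members were higher in the same libraries. They covered 250 bases before each annotated start of 9 members, and Adgre1 had no entry. The letters AGGAAGT, which hold the core bound by ETS factors such as PU.1 and the endothelial factor ERG, occurred on either strand in 5 of the 9 members and in 7.69% of all 32851 promoters of that length. Members were counted by gene, with a match in any window (Ptprc had an additional window), but all promoters were counted window by window. The shares of members and of all promoters are thus not on the same scale, for this and the other motifs. These letters were chosen after the windows had been seen. The longer GAGGAAGT, a form preferred by PU.1 that contains those letters, was in none of the 9 and in 2.44% of all promoters. Of the other motifs searched on both strands, TGTGGT (RUNX) was in Lyz2 alone (14% of all promoters), TATAAA in Ctss, Lilr4b and Ptprc (12.4%), and TTGCNNAA (C/EBP, 9.56%), TGANTCA (AP-1, 6.75%), CACGTG (E-box, 6.02%) and the ETS and IRF composite element (0.594%, which can overlap the ETS core) in none. A match is a string of letters and not a bound site. The windows of Lyz2, C1qb, Ccl6 and Mrc1 are printed 5′ to 3′ on the strand of the gene, up to the edge of the annotated gene, with AGGAAGT in capitals, here as its reverse complement, to show where the letters stand in 3 members that differed between the groups and in Mrc1.
Lyz2, chr10:117282322-117282522, minus strand: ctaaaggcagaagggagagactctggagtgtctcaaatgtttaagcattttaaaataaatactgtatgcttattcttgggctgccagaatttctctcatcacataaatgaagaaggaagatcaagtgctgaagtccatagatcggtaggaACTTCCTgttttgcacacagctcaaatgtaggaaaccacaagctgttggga
C1qb, chr4:136886201-136886450, minus strand: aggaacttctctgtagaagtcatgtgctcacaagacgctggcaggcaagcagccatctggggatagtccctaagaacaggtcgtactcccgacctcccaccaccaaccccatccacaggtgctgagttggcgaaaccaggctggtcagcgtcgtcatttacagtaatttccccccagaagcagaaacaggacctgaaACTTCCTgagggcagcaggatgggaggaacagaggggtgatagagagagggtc
Ccl6, chr11:83593088-83593337, minus strand: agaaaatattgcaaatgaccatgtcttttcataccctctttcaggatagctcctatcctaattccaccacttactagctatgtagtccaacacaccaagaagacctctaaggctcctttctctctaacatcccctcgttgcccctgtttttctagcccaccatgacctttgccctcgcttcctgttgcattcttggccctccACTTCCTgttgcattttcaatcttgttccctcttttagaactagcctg
Mrc1, chr2:14229164-14229391, plus strand: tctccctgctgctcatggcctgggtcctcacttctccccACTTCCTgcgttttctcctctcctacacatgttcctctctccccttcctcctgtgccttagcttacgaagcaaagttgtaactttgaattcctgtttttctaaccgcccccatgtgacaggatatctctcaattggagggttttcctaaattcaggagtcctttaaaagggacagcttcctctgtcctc
Measured from the RefSeq start, the last base of the match was 94 bases upstream in Lyz2, 47 in C1qb, 42 in Ccl6 and 205 in Mrc1.

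Among the CSE-KO libraries, the members stood in much the same order. CSE-KO 2 was the highest of the 3 in 7 of the 9 members without Mrc1, and CSE-KO 1 the lowest in 7. The exceptions were Marco, highest in CSE-KO 3, and Lilr4b, highest in CSE-KO 1. The highest CSE-KO library exceeded the lowest 1.72-fold in Adgre1, 1.63-fold in Mpeg1, 1.55-fold in Marco, 1.39-fold in Ptprc and 1.38-fold in Ctss. In C1qb, Ccl6, Lyz2 and Lilr4b the ratio was between 1.11 and 1.21. Among 17 further macrophage and leukocyte genes with a WT mean under 3 and a CSE-KO mean of at least 10, CSE-KO 2 was alone the highest in 11 (64.7%) and CSE-KO 1 alone the lowest in 11. Among the 266 other genes of the table with such means, CSE-KO 3 was the highest in 43.6% and CSE-KO 2 in 33.1%, and CSE-KO 1 was again the most common lowest (48.1%, against 19.2% for CSE-KO 2 and 21.1% for CSE-KO 3). As a measure of spread, the squared difference of a pair of libraries divided by their sum averages 1 for counting noise alone. Over the 10 members it averaged 5.14 between CSE-KO 1 and 2, 2.30 between CSE-KO 1 and 3 and 1.93 between CSE-KO 2 and 3, against 0.857 to 1.35 between WT libraries. Over all tested genes it was 1.63, 1.92 and 0.860 for the same pairs of CSE-KO libraries and 0.709 to 0.757 within WT. CSE-KO 1 thus stood apart over the whole table too. Within WT and between CSE-KO 2 and 3 this measure was under 1, less than counting noise alone gives for unscaled counts. The reason was not tested, and the p-values below rest on this narrow spread. Whether replicates were separate animals or cultures is not stated, so the p-values below speak for these 6 libraries, and the spread behind them may be technical.

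**Figure D2:**
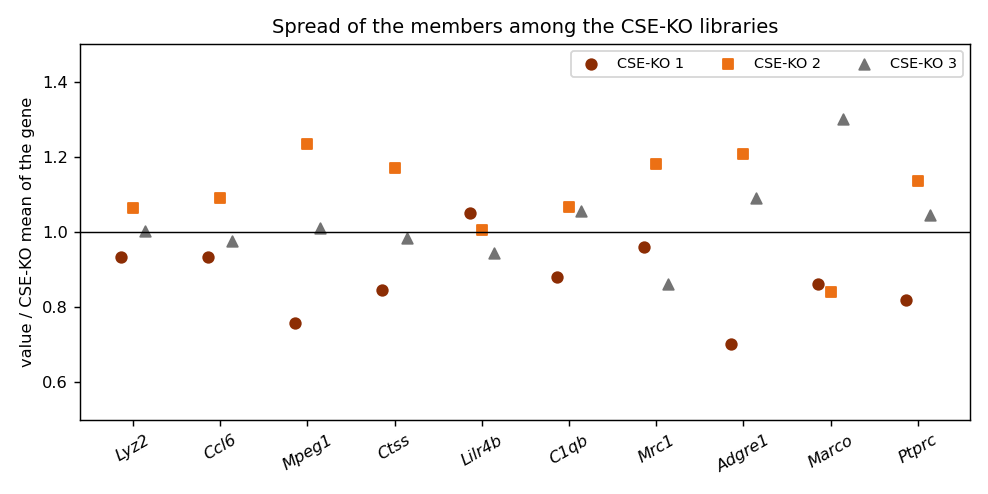
Value of each member in CSE-KO 1, 2 and 3 (markers), divided by the gene's CSE-KO mean, with a line at 1. CSE-KO 2 lies highest and CSE-KO 1 lowest in 7 of the 9 members without Mrc1, and the spread is widest in Adgre1, Mpeg1 and Marco.

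Other genes of macrophages and of blood-derived cells were read to see whether they behaved like the members, with lists chosen when earlier results of these data were known. Of all tested genes, 38.3% rose and 39.0% fell at an adjusted p under 0.05 (limma with Benjamini-Hochberg adjustment over 13750 genes), with a median log2 difference of 0.00. Of the 31 pan-macrophage genes other than the members, 28 had values and 21 were tested, of which 18 rose and 3 fell, with a median of 4.26. A list count of this kind is fixed in part by the minimum, because 13 of the 21 passed it only through the CSE-KO libraries and so had to be higher. Of the 20 leukocyte genes, 17 were tested, 14 rose and 2 fell (median 1.47), and 6 had passed only through CSE-KO. At a minimum of 50 in at least 3 libraries, 8 pan-macrophage genes rose and 3 fell (median 1.36), and 5 leukocyte genes rose and 1 fell. That minimum has the same limit, since 6 of the 8 and 3 of the 5 risers were under 50 in all WT libraries. The pan-macrophage median was 2.68 with a pseudocount of 5.

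Taken over both lists without a test, the 48 genes with values fell into distinct classes by level. In 17 (35.4%) the WT mean was under 3 and the CSE-KO mean at least 10, a pattern met by 1.53% of the 18956 genes of the table. These held partners of the members. C1qa and C1qc, the other C1q chains, behaved alike, C1qa at 0, 2 and 1 against 52, 83 and 77 and C1qc at 0, 0 and 1 against 63, 83 and 81. C1qb made up 43.9%, 39.6% and 40.6% of the counts of the 3 chains in CSE-KO 1 to 3, so the chains kept close to the same proportion. Cybb, the membrane subunit of the phagocyte oxidase, was at 1, 0 and 1 against 74, 108 and 94. Tyrobp, the signalling adaptor of many myeloid receptors, was at 0, 1 and 1 against 38, 48 and 45. Itgam, the integrin chain CD11b, was listed at 0 in WT and was at 26, 28 and 27 in CSE-KO. Of the leukocyte genes among them, the GTPase gene Rac2 was at 0, 0 and 0 against 24, 28 and 34, the surface peptide gene Cd52 at 0, 0 and 0 against 21, 23 and 21, and Dock2, an activator of Rac, at 0, 0 and 0 against 16, 17 and 10. The class was set by these same values, so no test is given for it.

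A second class of 18 genes (37.5%) had a WT mean of at least 10, and here the directions were mixed. Mertk, a receptor for dying cells, rose from 973 ± 17.9 to 1303 ± 20.5 (log2 difference 0.42, limma adjusted p = 7.1e-08). The lysosomal membrane gene Cd68 rose from 114 ± 13.5 to 162 ± 10.1 and Fcer1g, the shared chain of Fc receptors, from 29.7 ± 4.93 to 76.3 ± 6.66. The lipopolysaccharide receptor gene Cd14 fell from 779 ± 7.51 to 239 ± 67.1 and Sirpa, which binds the signal CD47, from 712 ± 30.1 to 297 ± 50.7. The Cd14 call was lost when WT counted as 1 sample and CSE-KO 2 and 3 as 1 sample (adjusted p = 0.14). Laptm5, a lysosomal gene of blood-derived cells, rose from 15.3 ± 2.08 to 109 ± 17.9, and the integrin chain gene Itgb2 from 26.7 ± 9.50 to 80.7 ± 12.7. In 8 genes (16.7%) both means stayed under 10, among them the monocyte receptor gene Cx3cr1 at 1, 0 and 0 against 3, 0 and 2, Aif1 at 1, 2 and 2 against 5, 3 and 4, and the costimulator gene Cd86 at 0, 1 and 0 against 5, 3 and 4. The remaining 5 genes (10.4%) had a WT mean between the bounds of these classes, 4 of them passed the minimum only through CSE-KO, and all 5 rose. Among them was the receptor for colony stimulating factor 1, Csf1r, at 3, 6 and 7 against 48, 53 and 44 (log2 difference 3.13). Csf1r passed the minimum only through CSE-KO, and per kilobase its CSE-KO mean was 8.37.

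**Figure D3:**
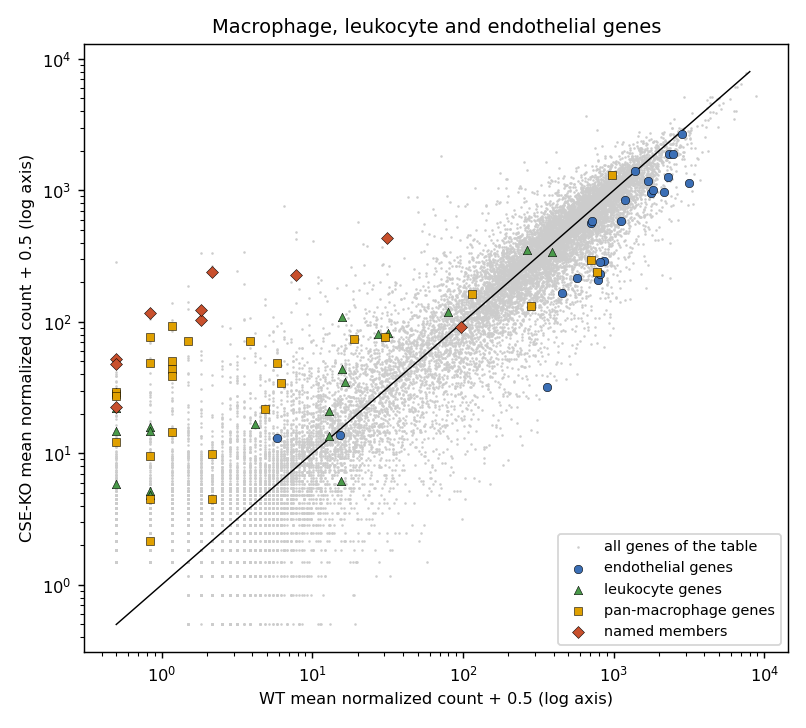
Mean normalized count plus 0.5 in CSE-KO against WT on log axes, 1 point per gene, with the line of equality. The named members other than Mrc1 lie above the line. Of these, 7 lie at the left edge, where WT means are near 0, with many pan-macrophage and leukocyte genes, and Mpeg1 and Lyz2 lie further right. Endothelial genes lie at high means, mostly below the line.

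Transcription factors of the myeloid lineage did not move as a group. Of 10 tested, 5 rose and 4 fell, with a median log2 difference of −0.05 that was 0.03 with equal totals. Spi1 was listed at 0 in each WT library and stood at 18, 30 and 31 under CSE-KO. It was the 1 gene of these that passed the minimum only through CSE-KO, so its direction was fixed by the minimum. Irf5, an interferon regulatory factor, rose from 19.3 ± 2.52 to 87.0 ± 10.5, Mitf, a factor of lysosomal genes, from 109 ± 10.4 to 163 ± 10.3, and Cebpb from 616 ± 20.7 to 745 ± 10.6. Those that fell were abundant in WT. Maf went from 1588 ± 29.0 to 316 ± 151 (adjusted p = 0.0032), Irf8 from 570 ± 13.2 to 175 ± 32.3, the sterol receptor gene Nr1h3 from 296 ± 22.4 to 81.0 ± 16.1 and Cebpa from 55.3 ± 2.52 to 43.0 ± 6.08. The Cebpa call (adjusted p = 0.040) was lost in 11 of 18 alternatives, with adjusted p up to 0.20, and that of Maf when WT counted as 1 sample (0.067) and when CSE-KO 2 and 3 also counted as 1 sample (0.23).

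Growth factors of macrophages and their receptors rose in 6 of 8 tested genes and fell in 1 (median 2.12), with 4 that passed only through CSE-KO. Csf1, the main survival factor of macrophages, which endothelial cells make, rose from 1654, 1628 and 1618 to 2490, 2555 and 2578 (log2 difference 0.64, adjusted p = 1.1e-09). Csf2, the factor that matures macrophages of the air space, went from 2.67 ± 2.52 to 23 ± 2.00 and passed only through CSE-KO. Il34, the other ligand of the Csf1 receptor, fell from 39.0 ± 4.00 to 11 ± 4.36. The receptor chain genes Csf2rb and Csf2rb2 were listed at 0 in all WT libraries and stood at 24, 46 and 48 and at 21, 21 and 24 in CSE-KO, and Csf2ra rose from 56.3 ± 4.93 to 121 ± 10.5. Csf3, the neutrophil factor, was at 467 ± 8.02 and 472 ± 11 and did not pass (adjusted p = 0.72).

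The families of the members gave different pictures. CC chemokines, the family of Ccl6, rose in 7 of 8 tested genes and fell in 0 (median 1.63), with 2 that passed only through CSE-KO. The T cell and monocyte attractant gene Ccl5 rose from 31.0 ± 6.56 to 229 ± 28.0, the monocyte attractant gene Ccl7 from 162 ± 9.54 to 329 ± 11.5, and Ccl9, which shares 70.7% coding identity with Ccl6, from 26.0 ± 3.61 to 103 ± 14.7. Ccl2, another monocyte attractant, was at 499 ± 18.0 and 522 ± 2.65 and did not pass (adjusted p = 0.13, and 0.0050 with equal totals). Of the immunoglobulin-like receptors, Lilrb4a and Pirb were tested and both rose, each only through CSE-KO, with Pirb, an inhibitory receptor gene, at 0, 0 and 0 against 25, 43 and 24. Complement genes split, with 5 that rose and 5 that fell of 12 tested (median 0.39, and 0.24 without WT 3), and 3 of the 5 risers, C1qa, C1qc and C5ar1, had passed only through CSE-KO. The receptor genes C3ar1 and C5ar1 rose from 14 ± 1.73 to 61.0 ± 7 and from 0.333 ± 0.577 to 29.0 ± 5.29, whereas C5ar2 fell from 41.0 ± 2.65 to 5.33 ± 3.51. Properdin, Cfp, rose from 26.0 ± 3.61 to 91.3 ± 7.64, and the shield protein gene Cd55 fell from 857 ± 20.1 to 627 ± 32.6.

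Scavenger and mannose receptors, the families of Marco and Mrc1, fell in 10 of 16 tested genes and rose in 4 (median −0.49), of which Olr1 passed only through CSE-KO. The 4 that rose were Msr1, the macrophage scavenger receptor (18.3 ± 1.15 to 73.3 ± 9.71), the receptor for oxidised lipoprotein Olr1 (2, 0 and 0 against 64, 77 and 115), the membrane chemokine Cxcl16 (81.3 ± 7.09 to 279 ± 21.1) and the lectin gene Ly75 (678 ± 6.66 to 775 ± 27.0). Receptors abundant in WT were among those that fell. Stab1, a scavenger receptor of sinusoidal and lymphatic endothelium and of macrophages, fell from 6457 ± 130 to 4001 ± 231, and the hyaluronan receptor gene Lyve1 from 2066 ± 24.3 to 1063 ± 232 (adjusted p = 0.0052, and 0.090 with WT counted as 1 sample). The lectin gene Mrc2, of the same family as Mrc1, was at 53.3 ± 2.08 and 47.0 ± 11.3 and did not pass (adjusted p = 0.31). Adhesion receptors of the Adgr family fell in 8 of 12 and rose in 2 (median −0.51). Adgre5, which encodes CD97 and belongs to the subfamily of Adgre1, fell from 511 ± 4.58 to 225 ± 17.2, whereas Adgrg2 rose from 106 ± 16.3 to 786 ± 72.1 and Adgrg1 from 369 ± 14.7 to 415 ± 26.3, a call lost in 4 of 18 alternatives (adjusted p up to 0.19).

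Cathepsins and lysosomal enzymes, the family of Ctss, fell in 11 of 17 tested genes and rose in 5 (median −0.28), and none had passed only through CSE-KO. The glucuronidase gene Gusb fell from 730 ± 32.2 to 243 ± 15.2, the lysosomal lipase gene Lipa from 778 ± 3.51 to 416 ± 29.1 and cathepsin B, Ctsb, from 1747 ± 24.4 to 1335 ± 16.8. Cathepsin C, Ctsc, which activates granule proteases, rose from 23.7 ± 2.31 to 75.7 ± 3.21 and cathepsin K, Ctsk, from 37.0 ± 5.00 to 85.0 ± 9.54. The protease genes Ctsa and Ctsd each rose by a log2 difference of 0.16. Genes of lipid-laden and osteoclast-like phagocytes rose in 9 of 14 and fell in 3 (median 0.82), with 3 that passed only through CSE-KO. Apolipoprotein E, Apoe, rose from 34.7 ± 2.31 to 189 ± 22.5, the galectin gene Lgals3 from 327 ± 7.23 to 551 ± 7.23, Gpnmb from 324 ± 4.51 to 603 ± 54.7 and lipoprotein lipase, Lpl, from 11.3 ± 4.04 to 74.7 ± 10.2. The debris receptor gene Trem2 was listed at 0 in WT and stood at 21, 22 and 43 in CSE-KO.

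**Figure D4:**
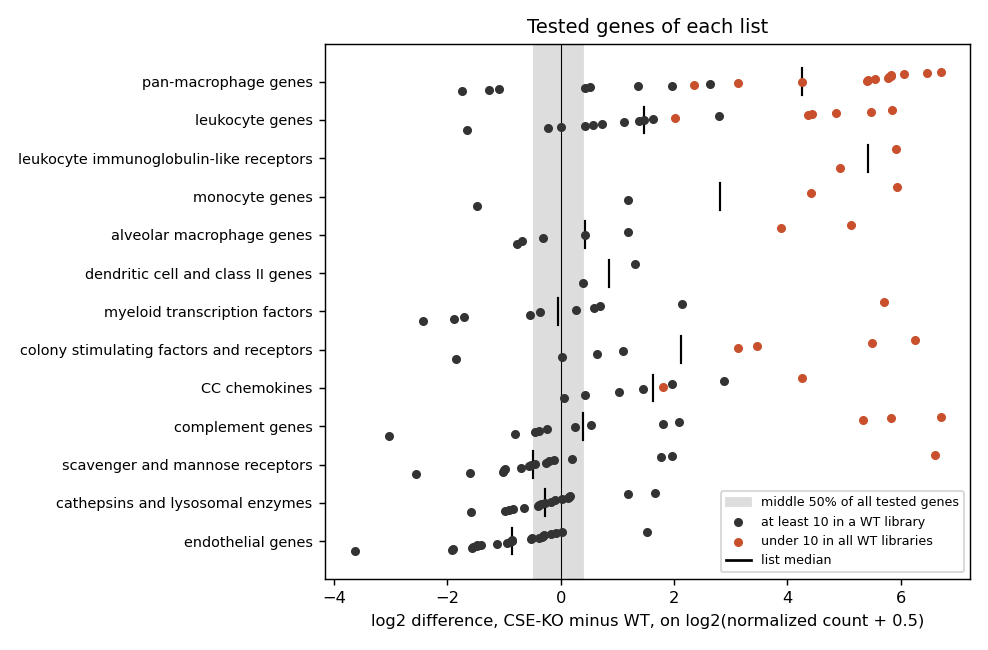
Log2 difference, CSE-KO minus WT, of the tested genes of 13 lists (points) with the list median (bar). Points of genes under 10 in all WT libraries are coloured, and the grey band holds the middle 50% of all tested genes. Macrophage and leukocyte genes spread far to the right through the coloured points, and scavenger receptors, lysosomal enzymes and endothelial genes lie mostly left of 0.

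Markers of subtypes of macrophages were sparse. Of 15 genes of macrophages of the air space, 9 had values and 7 were tested, of which 4 rose, 2 of them only through CSE-KO, and 2 fell (median 0.43, and −0.32 at a minimum of 50). The proton pump subunit gene Atp6v0d2 was at 1, 1 and 1 against 48, 66 and 44 and the integrin chain gene Itgax, CD11c, at 0, 2 and 2 against 24, 21 and 19. Chil3, a chitinase-like protein made in large amounts by macrophages of the air space, was at 0, 0 and 0 against 3, 2 and 2. Pparg, the factor that sets their fate and is also made by endothelium, fell from 478 ± 33.5 to 296 ± 6.11. Of 12 genes of interstitial macrophages, 5 had values, 1 rose (Pf4, 29.7 ± 5.51 to 70.7 ± 12.1) and 1 fell (Gas6, 1061 ± 15.6 to 548 ± 70.9). Of 10 monocyte genes, 4 were tested, 3 rose, 2 of them only through CSE-KO, and 1 fell, with Ms4a6c at 0, 0 and 0 against 25, 32 and 34. Class II genes were low in both groups, with H2-Ab1 at 2, 4 and 1 against 5, 6 and 5 and its chaperone gene Cd74 at 0, 2 and 1 against 8, 6 and 2. In that list Zbtb46 and H2-DMa were tested and both rose.

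Markers of other blood cells were mostly low or had no value. Of 15 T and NK cell genes, 4 had values, of which only the kinase gene Lck was tested, and it rose from 139 ± 2.00 to 232 ± 6.03. Of 10 B cell genes, 4 had values, and Pax5 was tested, having passed only through CSE-KO (9, 0 and 5 against 29, 36 and 41, adjusted p = 0.037, up to 0.097 in the alternatives). Of 14 neutrophil genes, 5 had values and 4 were tested and rose, 2 of them only through CSE-KO, namely the neutrophil collagenase gene Mmp8 at 1, 0 and 2 against 133, 146 and 145 and the calprotectin chain gene S100a8 at 1, 2 and 3 against 19, 23 and 13. Of mast cell and basophil genes, 5 of 10 had values, and Mcpt8 rose from 67.3 ± 6.11 to 104 ± 11.5 while Hdc fell from 58.0 ± 9.64 to 23.3 ± 6.03. Of platelet and red cell genes, 3 were tested and all 3 rose, Ppbp only through CSE-KO and Pf4 among them, with Itga2b going from 30.3 ± 4.04 to 51.0 ± 9 and Ppbp from 1.33 ± 1.53 to 19.7 ± 3.51. Epithelial genes were tested in 3 cases, of which Krt19 rose from 185 ± 3.06 to 550 ± 22.2, and fibroblast and mural genes rose in 4 and fell in 3 of 10.

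The labelled cell type was checked against 23 endothelial genes, all of which had values. Their summed level was between 30057 and 30608 in WT and between 17797 and 19441 in CSE-KO, against sums of 34 to 50 and 1216 to 1507 for the 9 members. Of the 23, 20 fell and 0 rose, with a median log2 difference of −0.86. Among those that did not pass, 2 were low in both groups. Vwf was at 1, 5 and 10 against 12, 9 and 17, and Sox17 at 17, 14 and 13 against 16, 9 and 15. Pecam1, the adhesion molecule CD31, fell from 2314 ± 22.9 to 1879 ± 5.86, and nitric oxide synthase, Nos3, from 574 ± 16.6 to 216 ± 12.3. Per kilobase, the CSE-KO mean of Pecam1 was 302, against 333 for Lyz2, 134 for Ccl6 and 24.8 for Marco. Over the 23 endothelial genes that mean ranged from 0.789 for Vwf to 636 for Cdh5. The sums of the other pan-macrophage genes, led by Mertk, were between 2910 and 2962 in WT and between 2920 and 3128 in CSE-KO, and those of the leukocyte genes between 843 and 905 and between 1263 and 1420. The part of these blood-cell genes in the values of the members and of the endothelial genes was not tested.

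The genes outside the list whose pattern over the 6 libraries came closest to that of the sum of all 10 members were found by the mean absolute difference of log2(value + 0.5), each gene centred on its CSE-KO mean, among 10675 genes with a CSE-KO mean of at least 50. The nearest was Ttc39c at 25, 29 and 33 against 254, 300 and 266 (distance 0.0986). It was followed by Gm48933 (0.120), Adtrp (0.123), Gpr39 (0.125), Pmaip1 (0.141), Chac1 (0.142), Adamts6 (0.144), Irs1 (0.146), Gdf15 (0.148) and Tmem171 (0.152). None of these 10 was on a list used here. That sum includes Mrc1, which made up most of its WT level, so its means differed 10.4-fold, against 31.8-fold for the 9 members without Mrc1, and the genes named are those near the smaller ratio. The distance is set largely by the size of the difference between the groups, since 6 libraries in 2 groups leave little else to match.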

How the data were processed

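Per the labels' protocols, RNA from mouse lung endothelial cells was purified on miRNeasy micro columns with DNase treatment, made into stranded mRNA libraries from 300 ng and sequenced as single-end reads of 75 bases. The submitters' processing notes name mm10 and, without roles, DESeq2 1.26.0, featureCounts 1.6.5, Picard 2.21.7, STAR 2.7.3a and Trimmomatic 0.39. Each value deposited by the authors was a whole-number score per gene and library, read here as a count divided by a size factor and rounded. No header states this, and it was inferred from recomputed size factors between 1.003 and 1.008. On that reading the totals are scaled, and they do not give the depth in reads of each library. If duplicate reads were removed, high values may be understated. The smallest row maximum was 3.

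Values were analysed as log2(value + 0.5) with limma 3.58.1 in R 4.3.3 (linear model of group, trend, robust variances, two-sided) for 13750 genes with at least 10 in at least 3 libraries, and called at an adjusted p under 0.05. Fold changes on this scale are understated for low genes, and where a group mean was under 3, no fold is printed. The code was tested on simulated data. Exon lengths came from GENCODE M21, whose coordinates matched those of all 10 members, and family identities from global alignment in Biopython 1.88. The members and lists were chosen with earlier results of these data known. Named genes are the members, their close relatives, up to 5 genes per list by smallest adjusted p, any needed gene of the macrophage, leukocyte, transcription factor, growth factor and immunoglobulin-like receptor lists, Cth, and the 10 genes of nearest pattern. Others, such as Stab1, Lyve1, Mrc2, Itgax, Chil3, Ccl2, C5ar2 and the class II genes, and the few risers of a list, were chosen after their values were seen. Alternatives covered scaling, the minimum value, the pseudocount, each library left out, the replicate block, and libraries averaged as 1 sample. Most genes of the lists are given only as counts, and some are not reported here.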

Additional observations from a re-analysis of the deposited data

How the results depend on the processing

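The count of changed genes, 10639, stayed between 8225 and 11859 in all 18 alternatives, and between 10137 and 10636 when 1 library was left out. Of 414 counts of changed genes in the 23 lists, 20 left the range of 1.5 times the value reported. With at least 50 in at least 3 libraries, fewer genes are tested, and the counts were 11 pan-macrophage (21 reported), 6 leukocyte (16), 2 colony stimulating factor (7), 3 CC chemokine (7), 2 neutrophil (4), 1 platelet and red cell (3) and 0 monocyte (4), immunoglobulin-like receptor (2) and B cell genes (1). With a mean of at least 10, 2 monocyte genes were called. With no minimum, more genes are tested, and 4 class II and dendritic cell genes (2), 3 T and NK cell genes (1), 5 platelet and red cell genes (3) and 2 epithelial genes (1) were called. The B cell count, which is Pax5 alone, ranged from 0 to 1 when 1 library was left out (0 without WT 3, CSE-KO 2 or CSE-KO 3), and was 0 with CSE-KO 2 and 3 as 1 sample. With WT as 1 sample and CSE-KO 2 and 3 as 1 sample, 1 interstitial macrophage gene (2) and 1 class II gene (2) were called. The fits that averaged CSE-KO 2 and 3 were added after the data were seen. With the replicate block, 10440 genes changed. Deviations of same-numbered libraries correlated at −0.000786, 0.02 and 0.0109. Libraries 2 and 3 of each group correlated best with their own number, and WT 1 and CSE-KO 1 did not. Over all pairs of a WT and a CSE-KO library the correlations lay between −0.0202 and 0.02. Values so near 0 cannot decide whether equal numbers mark a pair. Equal totals moved the median log2 difference of all tested genes to 0.08. List medians moved by over 1.5 times, among others, at the minimum of 50 for leukocyte genes (0.97), colony stimulating factors (0.64), CC chemokines (1.02) and complement genes (1.03), and with a pseudocount of 5 for monocyte (1.47), immunoglobulin-like receptor (2.62) and neutrophil genes (1.74). Of 174 member values, 1 moved beyond the replicate spread, the log2 difference of Mpeg1 with a pseudocount of 5 (4.22). Values near 0 in WT limit any fold of the members.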
